A study of Mus musculus with 280 samples.

Results

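The translation initiation factor genes are the genes whose products bring the ribosome, the initiator tRNA and the mRNA together. Members were chosen by gene symbol, as every gene of the expression table named Eif followed by a digit from 1 to 6, without Eif2s3x and Eif2s3y. This gave 50 of the 11076 genes in the table. By role they comprise 11 genes for start codon recognition and delivery of the initiator tRNA, where Eif1ad is counted by its symbol alone. The others are 5 subunits of eIF2B, 3 eIF2 kinases, 13 subunits of eIF3 and 12 genes of cap binding and mRNA unwinding. Besides these there are 3 regulators of eIF4E, 2 eIF5A genes and Eif6.

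Expression was measured by RNA sequencing of single mouse preimplantation embryos, in TPM, a unit that divides reads by gene length and scales every embryo to the same total. FVB is an inbred strain. Oocytes of females on control diet were fertilized in vitro with sperm of FVB males that had eaten a control or a low protein diet, and embryos grew in KSOM, a medium for early embryos. No gene was deleted or added in any group, and the embryos themselves received no diet. There were 41 control and 39 low protein 2-cell embryos, 42 and 40 4-cell embryos, 2 and 2 8-cell embryos, 38 and 35 morulae, 14 and 22 blastocysts, and 2 and 3 late blastocysts. Below, low protein embryos means embryos of low protein sires.

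In eukaryotes eIF2 carries the initiator tRNA to the small ribosomal subunit, eIF1 and eIF1A hold that subunit open for scanning, eIF3 is the large scaffold on it, and the eIF4 proteins bind the cap and unwind the mRNA. Phosphorylation of eIF2 blocks its recycling by eIF2B, and the 4E-binding proteins keep eIF4E from eIF4G unless they are phosphorylated downstream of mTOR. In the mouse, the embryo starts on RNA and protein stored in the oocyte. Most of that RNA is cleared around the main wave of embryonic transcription at the 2-cell stage.

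Embryos came from 20 sires, 10 per diet, and lay on 8 plates. Per embryo 3626 to 10204 genes reached a TPM of 1, with 1 control morula under 5000. The ribosomal RNA precursor Rn45s took 0.0409% to 34.5% of the total, the extremes being 4-cell embryos. Sequencing depth is unknown, since TPM keeps no record of it. The summed level of 6 oocyte and 2-cell markers (Obox5, Bmp15, Zp3, Zscan4d, Zscan4c and Zfp352) was 11483 ± 3571 TPM (SD, n = 41) in control 2-cell embryos and 96.4 ± 74 TPM (n = 42) in control 4-cell embryos. The summed level of 5 trophectoderm markers (Cdx2, Krt8, Krt18, Gata3 and Tfap2c) was 783 ± 508 TPM (n = 38) in control morulae and 12678 ± 5101 TPM (n = 14) in control blastocysts. Of 9 cumulus cell markers 1, Cyp19a1, is in the table, at 6.09 ± 5.13 TPM in control 2-cell embryos and at 0 in all 14 control blastocysts.

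Several blastocysts stood apart from their label. The 5 low protein blastocysts of plate 6, which holds no control blastocyst, had a summed trophectoderm marker level of 757 TPM on average (477 to 1542), against 14309 ± 3971 TPM (SD, n = 17) in the other low protein blastocysts, so the ranges did not overlap. Their summed initiation factor level averaged 13401 TPM, against 17195 ± 1077 TPM in the other 17. Results that rest on low protein blastocysts are therefore given with and without them. In addition, 1 control blastocyst had 169 TPM of the summed 2-cell markers, where the next highest had 5.01 TPM, and that embryo alone of its group was above 0 for Eif4e1b.

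The 50 genes together took about as much again of the transcriptome at the 4-cell stage as at the 2-cell stage. Their summed level ran from 6840 through a median of 10349 to 13333 TPM in the 80 2-cell embryos, and from 10881 through 20840 to 23612 TPM in the 82 4-cell embryos. It was 21938 to 23613 TPM in the 4 8-cell embryos, had a median of 21950 TPM in the 73 morulae and of 16923 TPM in the 36 blastocysts (17113 TPM in the 31 outside plate 6), and was 9955 to 13731 TPM in the 5 late blastocysts. The lowest morula was at 10200 TPM and the lowest blastocyst at 11687 TPM. Embryos of every stage but the 8-cell thus reached into the 2-cell range, and the 8-cell embryos all lay above every 2-cell embryo. As a share of the total, control embryos had 1.04 ± 0.122% (SD, n = 41) as 2-cell embryos, 1.92 ± 0.322% (n = 42) as 4-cell embryos, 2.03 ± 0.382% (n = 38) as morulae and 1.69 ± 0.0865% (n = 14) as blastocysts. Because TPM has a fixed total and embryos at these stages differ in cell number, a change is a change in share. A change in the amount of these RNAs and a change in the amount of all other RNA cannot be told apart.

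**Figure D1:**
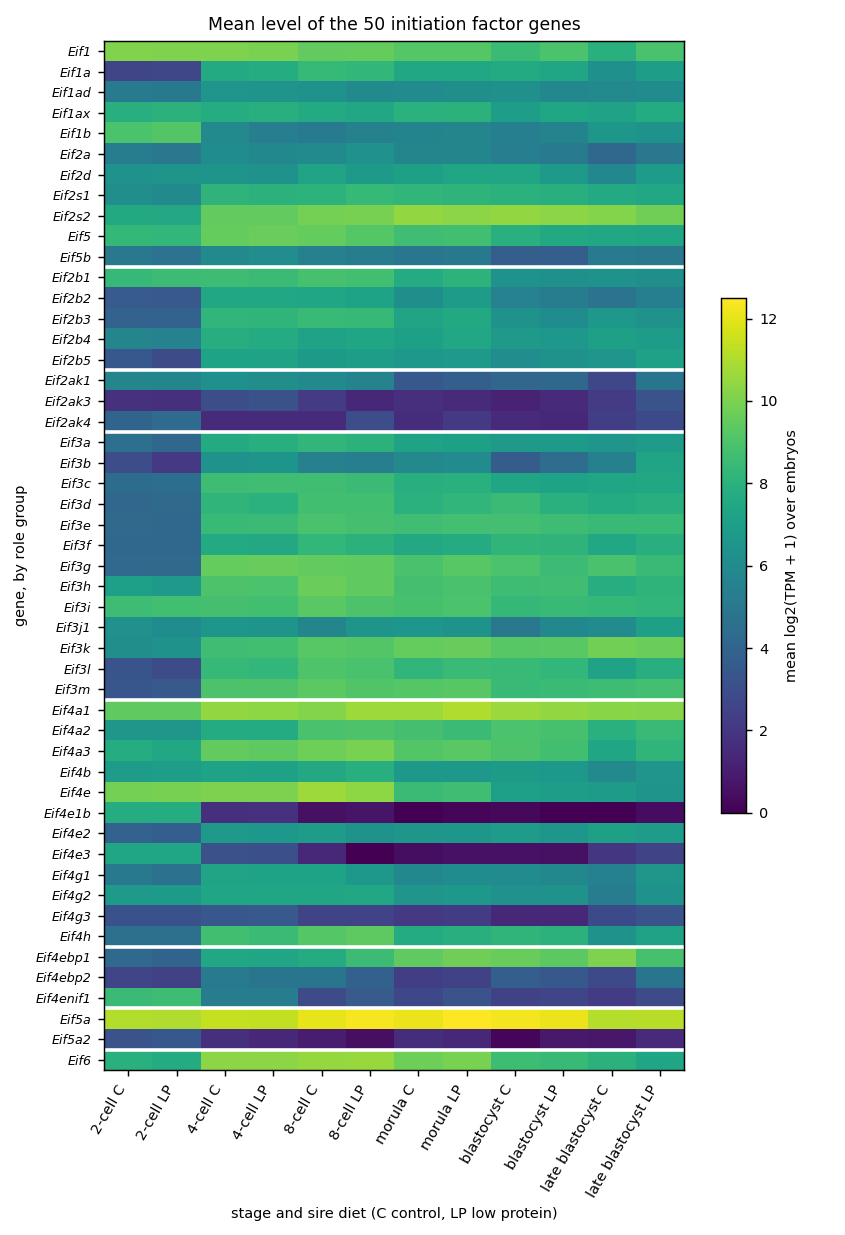
Mean log2(TPM + 1) over embryos (color) of the 50 genes (vertical axis, in role groups separated by white lines) in the 12 groups of stage and sire diet (horizontal axis). Most eIF3 and eIF2B genes are dark at the 2-cell stage and bright from the 4-cell stage on, whereas Eif4e1b, Eif4e3, Eif4enif1, Eif1b and Eif2ak4 go the other way.

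Changes of stage were tested at 3 steps in the embryos of each diet, each step being the later minus the earlier stage, with limma on log2(TPM + 1), plate as covariate and Benjamini-Hochberg adjustment over all genes. A gene rose or fell where its adjusted p was under 0.05 and its log2 fold change was at least 1 in size. These folds understate the change of low genes because of the added 1. From the 2-cell to the 4-cell stage 31 of the 50 genes rose in control embryos, where 34.9% of the 10880 genes tested rose, and 6 fell, where 36.9% of all did. In low protein embryos 31 rose and 6 fell, with 34.9% and 37.6% among 10901 genes. All 31 and all 6 were the same genes in both diets, whose embryos share plates and most oocyte donors. The median log2 fold change of the 50 genes was 1.64 in control and 1.72 in low protein embryos, against 0.01 and -0.04 over all genes tested. Within each of 6 plates, 29 to 31 of the 31 genes were higher in control 4-cell than in control 2-cell embryos. All 6 falling genes were lower in each, though the calls come from these same plates.

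The later steps were different in kind. From the 4-cell to the morula stage 1 gene rose in control embryos (10% of all genes) and 13 fell (26.8% of all). In low protein embryos 3 rose (11.6% of all) and 11 fell (24% of all). The falls in both diets numbered 10, which is 10 of 13 and 10 of 11. From the morula to the blastocyst stage 1 rose (7.1% of all) and 9 fell (17.1% of all) in control embryos, and 0 rose (4.61% of all) and 12 fell (19.3% of all) in low protein embryos, with 7 falls in both. The numbers of genes falling at these steps were near the shares over all genes. Without the 5 plate 6 blastocysts the last counts were 0 and 11, with 8 falls in both diets. Quantile normalization, which equalizes the distribution of values between embryos, moved the median of all genes in control embryos from -0.35 to -0.03 at the morula step, from -0.25 to -0.04 at the blastocyst step and from 0.01 to 0.17 at the 4-cell step. With it 2 genes rose and 7 fell at the morula step, 1 rose and 6 fell at the blastocyst step, and 30 rose and 6 fell at the 4-cell step. Over all genes it changed the share of rises among calls from 27.1% to 1746 rises beside 1746 falls at the morula step and from 29.3% to 48.7% at the blastocyst step, the latter being 46% without the plate covariate.

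Peaks were taken from the highest group mean of the 4 large stages, on the log scale used in the fits. Peaks by mean TPM can differ from these. In the control group, 25 of the 50 genes peaked in 4-cell embryos, 7 in 2-cell embryos, 7 in morulae and 11 in blastocysts. Over all 11076 genes, 30.2% peaked in 4-cell embryos, 41.6% in 2-cell embryos, 9.75% in morulae and 18.4% in blastocysts. In low protein embryos 27, 9, 12 and 2 genes peaked at these stages in turn, against 28.2%, 42.4%, 13.4% and 16.1% of all genes. Without the plate 6 blastocysts these counts were 26, 9, 7 and 8, against 27.4%, 42.1%, 12.9% and 17.7% of all.

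**Figure D2:**
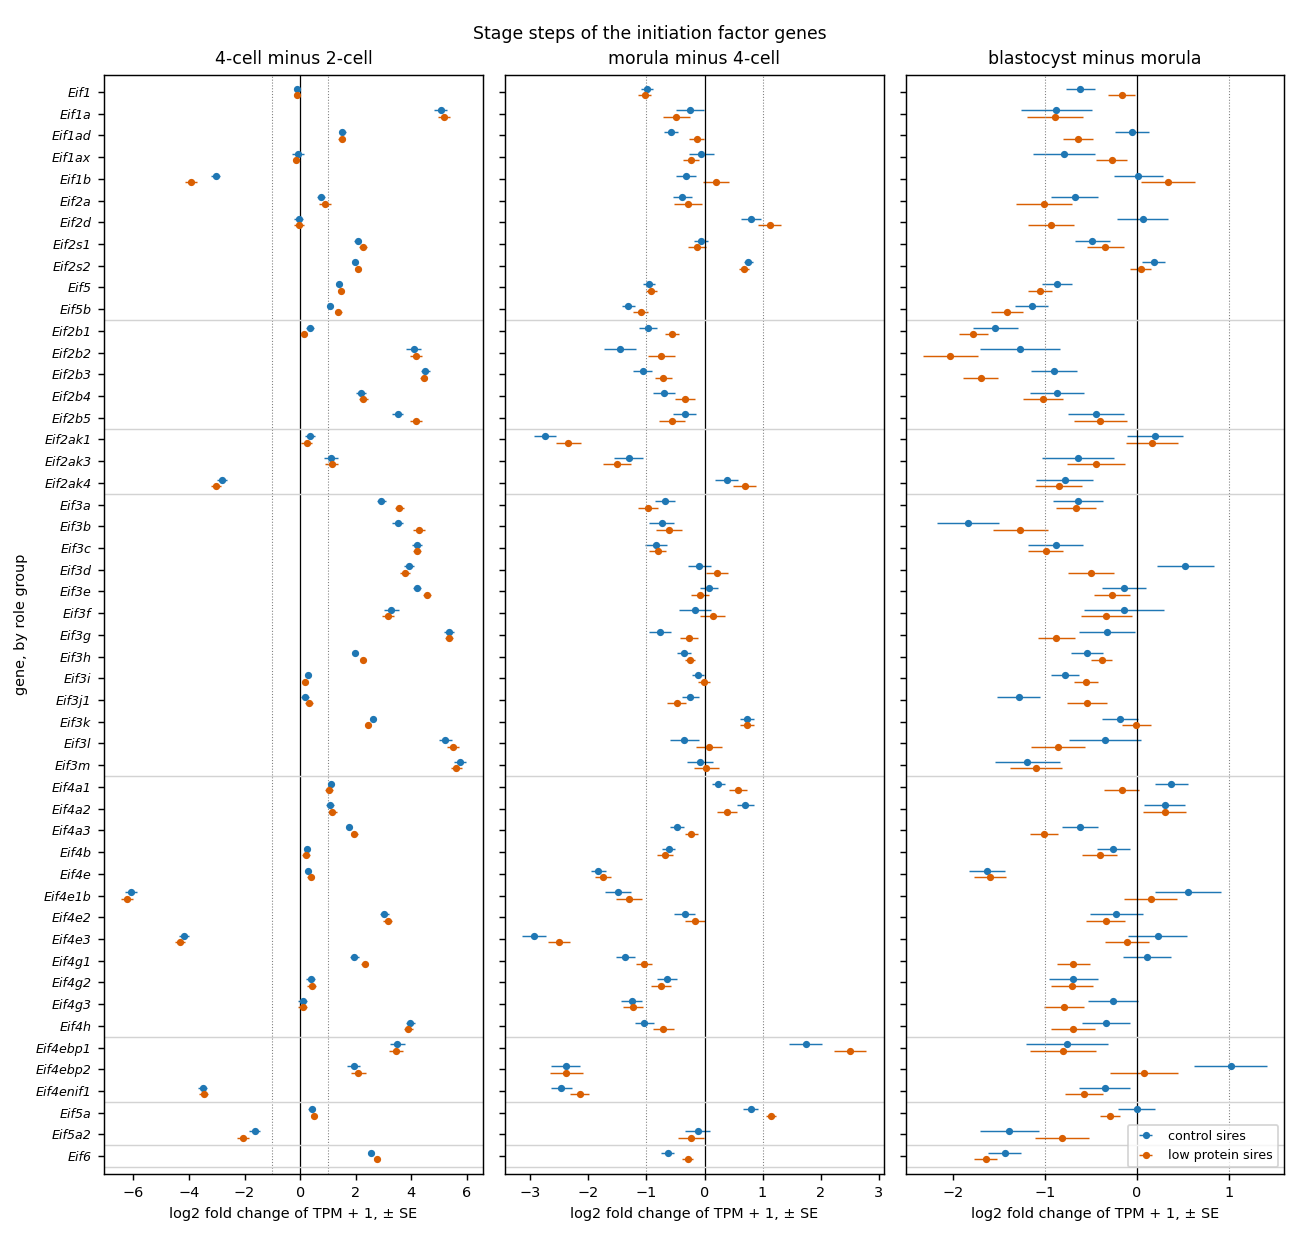
Log2 fold change of TPM + 1 with its SE (horizontal axes) for the 50 genes (vertical axis, by role group) at 3 steps, in control (blue) and low protein (orange) embryos, where dotted lines mark the minimum of 1 log2 unit. At the 4-cell step 31 genes lie right of that line and 6 left of it in each diet, and at the other steps most lie left of 0.

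The eIF3 genes made the broadest rise. Of the 13 subunit genes 11 rose (34.9% of all) and 0 fell (36.9% of all) at the 4-cell step in control embryos. The same counts held in low protein embryos (34.9% and 37.6% of all). The summed eIF3 level had a median of 914 TPM (453 to 2086) in 2-cell and of 5112 TPM (2723 to 6469) in 4-cell embryos, so no 4-cell embryo was as low as any 2-cell embryo. At the morula step 0 rose and 0 fell in either diet, where 26.8% of all genes fell in control and 24% in low protein embryos.

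Eif3m, a subunit of the octameric core (chromosome 2, 104999656 to 105017080 in GRCm38, which is mm10), was at 0 to 137 TPM with a median of 7.91 TPM in 41 control 2-cell embryos. In 42 control 4-cell embryos it was at 249 to 873 TPM with a median of 535 TPM. The groups did not overlap, and the log2 fold change was 5.74 ± 0.213 (SE, limma adjusted p = 9.09e-55), with 5.62 ± 0.205 in low protein embryos. Its locus overlaps Ccdc73, and the library kit is not stated to keep strand, so reads of the pair may be mixed.

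Eif3g, whose product binds RNA and takes part in scanning (chromosome 9, 20894349 to 20898623), had a median of 18.6 TPM (0 to 167) in control 2-cell and of 744 TPM (451 to 1186) in control 4-cell embryos. Again no embryo overlapped, and the log2 fold change was 5.36 ± 0.183 (limma adjusted p = 1.03e-58). Eif3l, another core subunit (chromosome 15, 79075179 to 79094405), went from a median of 9.93 TPM (0 to 94.7) to 339 TPM (177 to 564), with a log2 fold change of 5.23 ± 0.240. The other risers were Eif3a, the largest scaffold subunit, Eif3b, Eif3c, Eif3d, Eif3e, Eif3f, Eif3h and Eif3k, with log2 fold changes between 1.98 for Eif3h and 4.22 for Eif3e.

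Eif3i and Eif3j1 did not pass the minimum of 1. Eif3i, which with Eif3g and Eif3b forms the mobile module of eIF3, was already at a median of 393 TPM (117 to 749) in control 2-cell embryos and was at 447 TPM (234 to 907) at the 4-cell stage (log2 fold change 0.29 ± 0.094). Eif3j1, which codes for a loosely bound subunit, was at 75 and 99.1 TPM (0.18 ± 0.142, adjusted p = 0.213). Subunits of one complex therefore started from unequal shares at the 2-cell stage: in control embryos the 13 means ran from 9.45 TPM for Eif3b to 416 TPM for Eif3i. At the 4-cell stage they ran from 104 TPM for Eif3j1 to 771 TPM for Eif3g.

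At the blastocyst step 3 of the 13 eIF3 genes fell in control embryos (17.1% of all), Eif3b, Eif3j1 and Eif3m. Eif3b, a scaffold subunit (chromosome 5, 140419328 to 140443360), was at 19 to 257 TPM with a median of 58.1 TPM in 38 control morulae and at 7.32 to 20.8 TPM with a median of 10.5 TPM in 14 control blastocysts. The ranges overlapped by their ends, and the log2 fold change was -1.84 ± 0.340 (limma adjusted p = 4.94e-06). In the 2 control late blastocysts Eif3b was at 47.1 and 40.9 TPM, and in the 3 low protein ones at 169, 129 and 181 TPM, all above every control blastocyst. Late blastocysts share no plate with the blastocysts, so stage and plate cannot be told apart there. Eif3m was called in 11 of 14 alternative settings at this step, and Eif3j1 in 13.

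Promoter sequences were looked at because the eIF3 genes moved together at the 4-cell step. RefSeq promoters on GRCm38.p6, which span 250 bases before to 50 after the start, were matched by symbol for 40 of the 50 genes, with 53 starts. Those not matched were Eif1a, Eif2b3, Eif3e, Eif3h, Eif3i, Eif4e1b, Eif4e3, Eif4ebp1, Eif4g2 and Eif6. Motifs searched on both strands were the core of ETS factors (CCGGAAG), the CCAAT box (CCAAT), the TATA box (TATAAA), the E box (CACGTG, which is its own reverse complement) and the core of NRF1 (GCATGCG). A start of C followed by 4 pyrimidines was searched on the gene's strand alone. The 170 bases from 120 before to 50 after the start are shown on the gene's strand for the 3 eIF3 genes with the highest folds and for 2 genes that fell, with these motifs in capitals.
Eif3m, chr2:105016978-105017147, minus strand: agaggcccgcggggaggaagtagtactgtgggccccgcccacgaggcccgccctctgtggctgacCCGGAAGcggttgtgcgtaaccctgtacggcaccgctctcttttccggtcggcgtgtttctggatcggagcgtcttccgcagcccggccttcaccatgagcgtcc
Eif3g, chr9:20898541-20898710, minus strand: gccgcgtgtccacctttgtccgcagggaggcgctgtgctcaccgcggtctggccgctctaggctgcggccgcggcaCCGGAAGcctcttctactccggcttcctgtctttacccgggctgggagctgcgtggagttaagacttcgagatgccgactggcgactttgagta
Eif3l, chr15:79075103-79075272, plus strand: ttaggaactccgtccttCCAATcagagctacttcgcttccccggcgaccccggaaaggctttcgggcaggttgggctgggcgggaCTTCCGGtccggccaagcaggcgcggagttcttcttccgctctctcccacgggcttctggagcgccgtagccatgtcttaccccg
Eif1b, chr9:120492486-120492655, plus strand: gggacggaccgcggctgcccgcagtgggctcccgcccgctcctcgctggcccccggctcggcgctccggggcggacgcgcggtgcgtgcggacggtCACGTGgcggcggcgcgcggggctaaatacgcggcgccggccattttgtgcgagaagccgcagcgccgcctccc
Eif5a2, chr3:28781157-28781326, plus strand: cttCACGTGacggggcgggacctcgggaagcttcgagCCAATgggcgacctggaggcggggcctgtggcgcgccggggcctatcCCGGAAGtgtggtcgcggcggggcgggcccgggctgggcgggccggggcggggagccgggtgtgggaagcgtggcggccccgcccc

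Eif3m, Eif3g and Eif3l each hold the ETS core within 55 bases before the start, and so does Eif5a2, which fell. Over the windows of 300 bases the ETS core was in 19 of the 53 promoters of these genes, or 35.8%, against 8.86% of all 32851 promoters and 17.9% of the 10734 promoters of genes in the table. By gene, 10 of 25 risers and 3 of 4 fallers of the 4-cell step with a promoter held it, so it did not separate the directions. The E box was in 22.6%, against 7.15% of all and 10.1% of table promoters. The CCAAT box was in 28.3% against 37.4% and 39.1%, the TATA box in 5.66% against 13.6% and 7.48%, and the NRF1 core in 7.55% against 3.58% and 6.64%. The pyrimidine start was found in 1 of 53, of Eif3f (1.89%, against 2.51% and 2.32%). G and C made up a median of 62.7% of these windows, against 52.7% of all and 60.3% of table promoters. These are matches of letters and carry no test.

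The factor eIF2B reloads eIF2 with GTP. Of its 5 subunit genes 4 rose at the 4-cell step in both diets (34.9% of all in each). Eif2b3, which codes for the gamma subunit, had a median of 16.7 TPM (0.57 to 49.2) in control 2-cell and of 298.95 TPM (165 to 554) in control 4-cell embryos. The groups did not overlap, with a log2 fold change of 4.50 ± 0.152 (limma adjusted p = 2.23e-59). Eif2b2 (beta) had 4.08 ± 0.263, Eif2b4 (delta) 2.18 ± 0.177 and Eif2b5, the catalytic epsilon subunit, 3.50 ± 0.184.

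Eif2b1, which codes for the alpha subunit, differed from the other 4. It was already at a median of 343 TPM (60.1 to 827) in control 2-cell embryos and at 408 TPM (198 to 700) at the 4-cell stage (0.35 ± 0.148, under the minimum). No eIF2B gene rose at a later step. At the morula step 2 fell in control embryos (26.8% of all), Eif2b2 and Eif2b3, and 0 did in low protein embryos (24% of all). The call of Eif2b3 held in 10 of 14 alternative settings. At the blastocyst step Eif2b1 and Eif2b2 fell in control embryos, the call of Eif2b2 holding in 8 of 14 settings (log2 fold change -1.49 to -0.69). Eif2b1, Eif2b2, Eif2b3 and Eif2b4 fell in low protein embryos, with and without the plate 6 blastocysts, and the call of Eif2b4 held in 11 of 16 settings. Eif2b1 was at a median of 235 TPM (20.3 to 542) in control morulae and of 84.1 TPM (56.1 to 143) in control blastocysts (log2 fold change -1.54 ± 0.246, limma adjusted p = 1.22e-07). The summed eIF2B level had medians of 499, 1348, 831 and 383 TPM over 2-cell, 4-cell, morula and blastocyst embryos of both diets, the last being 393 TPM without plate 6.

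The 3 eIF2 kinase genes in the table each had a course of their own. Eif2ak4 codes for GCN2, which senses uncharged tRNA, and fell at the 4-cell step from a median of 19.3 TPM (0 to 48.8) to 2.10 TPM (0 to 7.81) in control embryos. Its log2 fold change was -2.81 ± 0.187 (limma adjusted p = 8.03e-30), with overlapping ranges. Eif2ak1, coding for the heme-regulated kinase HRI (chromosome 5, 143817788 to 143904251, overlapping Aimp2 and Ankrd61), was at medians of 55 and 93.6 TPM at the 2-cell and 4-cell stages. It fell at the morula step to a median of 12.7 TPM (0 to 28.4), with -2.75 ± 0.195 (limma adjusted p = 1.5e-26) and -2.35 ± 0.219 in low protein embryos.

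Eif2ak3, which codes for PERK, the kinase of the endoplasmic reticulum, was low throughout. Its median went from 1.92 TPM (0 to 29.4) to 7.49 TPM (0 to 34.6) at the 4-cell step and to 2.23 TPM (0 to 16.1) at the morula stage, and both steps were called (1.11 ± 0.237 and -1.30 ± 0.251). At the 4-cell step in control embryos, 6 genes that act on eIF2 phosphorylation or downstream of it were looked at. Of these 1 rose (34.9% of all genes) and 1 fell (36.9% of all). Nck1, an adaptor, rose (1.18 ± 0.220), and Ppp1r15a, the stress-induced regulatory subunit of the eIF2 phosphatase, fell (-1.24 ± 0.189). At the morula step 0 rose (10% of all) and 3 fell (26.8% of all). The 3 were Ppp1r15a (-2.07 ± 0.201), Ppp1r15b, its constitutive counterpart (-1.21 ± 0.241), and Atf4, a transcription factor translated when eIF2 is phosphorylated (-1.24 ± 0.160).

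The genes for eIF4E changed in composition. Eif4e1b, an oocyte paralog of the cap-binding protein eIF4E (chromosome 13, 54783998 to 54788459), was at 26.1 to 1044 TPM with a median of 214 TPM in 41 control 2-cell embryos. In 42 control 4-cell embryos it was at 0 to 23 TPM with a median of 2.32 TPM, 11 being at 0. No embryo overlapped between the stages in control embryos, and the log2 fold change was -6.10 ± 0.215 (limma adjusted p = 4.65e-57). It was listed at 0 in 37 of 38 control morulae and in 13 of 14 control blastocysts, the exception being the blastocyst with 2-cell markers, at 11.3 TPM.

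Eif4e3, an atypical cap-binding paralog (chromosome 6, 99625135 to 99666771, overlapping Gm20696), fell from a median of 165 TPM (81.1 to 445) to 9.16 TPM (0 to 35.4). No embryo overlapped, and the log2 fold change was -4.18 ± 0.193 (limma adjusted p = 1.28e-44), followed by -2.94 ± 0.205 at the morula step. Eif4e2, coding for the repressor 4EHP, which binds the cap without recruiting eIF4G, moved the other way. It rose from a median of 13.7 TPM (1.95 to 107) to 112 TPM (26.2 to 458), with 3.03 ± 0.173 (limma adjusted p = 8.91e-36), and its medians were 102 TPM in control morulae and 128 TPM in control blastocysts.

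Eif4e itself (chromosome 3, 138526179 to 138559696) kept its level at first and then fell at both later steps. Its median was 1076 TPM (358 to 1755) in control 2-cell, 1149 TPM (438 to 1882) in control 4-cell, 378 TPM (71.3 to 1159) in control morula and 133 TPM (99.4 to 159) in control blastocyst embryos. The 4-cell step was 0.28 ± 0.118 and was not called. The morula step was -1.83 ± 0.125 (limma adjusted p = 6.55e-28) and the blastocyst step -1.64 ± 0.195 (limma adjusted p = 5.08e-12), with -1.75 ± 0.138 and -1.60 ± 0.178 in low protein embryos, the latter being -1.48 ± 0.213 without the plate 6 blastocysts. In the 4 8-cell embryos, which lie on 1 plate, Eif4e was at 1797, 1474, 1361 and 1255 TPM. All of these were above every control morula.

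As a share of the 4 eIF4E genes in each embryo, Eif4e2 had medians of 0.854% in 80 2-cell, 8.52% in 82 4-cell, 6.13% in 4 8-cell, 21% in 73 morula, 45.1% in 36 blastocyst and 53.2% in 5 late blastocyst embryos. Eif4e had 71.8%, 90.05%, 93.8%, 78.7%, 54.5% and 45.6%. The share of Eif4e1b in the sum of Eif4e and Eif4e1b had a median of 17.4% (3.01 to 70.5%) at the 2-cell stage and of 0.177% (0 to 5.60%) at the 4-cell stage. The ranges of that share overlapped only below 5.60%. By the blastocyst stage the gene of the repressor paralog was thus present at about the level of Eif4e, the range of its share being 25.5 to 59.4% over blastocysts. Over the 31 blastocysts outside plate 6 the share of Eif4e2 had a median of 46.9% (34.6 to 59.4%) and that of Eif4e one of 53.1%.

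**Figure D3:**
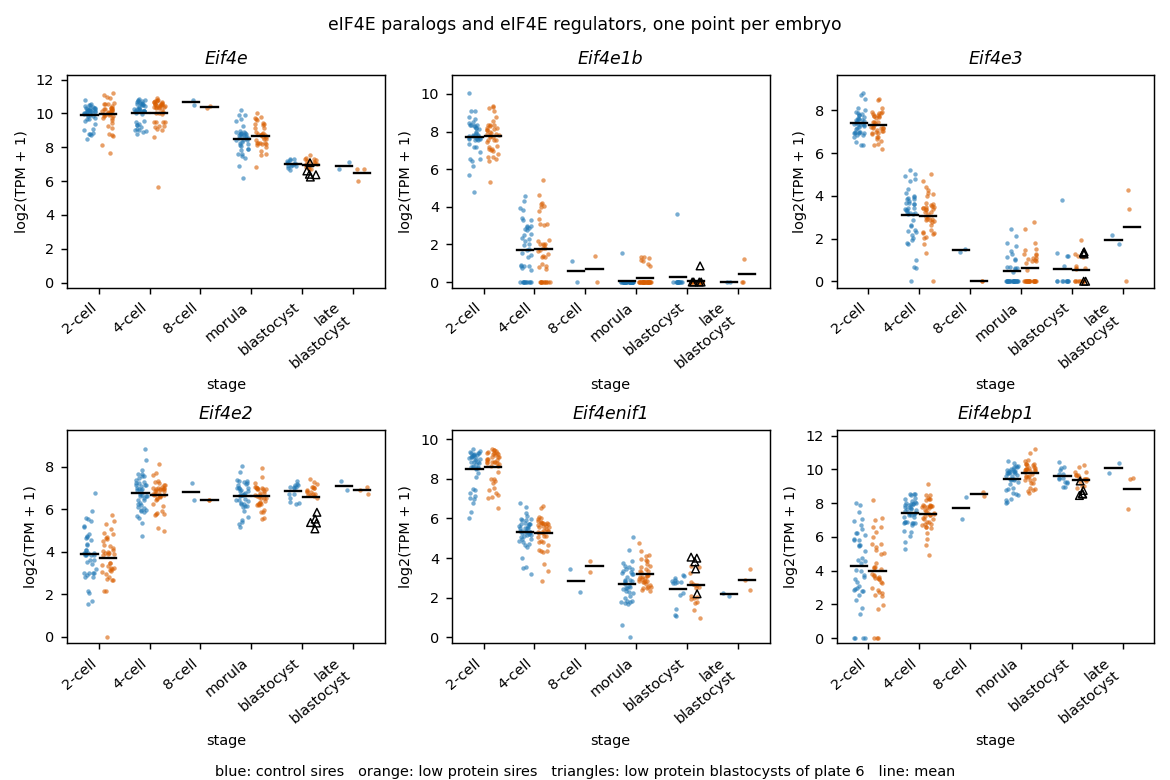
log2(TPM + 1) of 6 genes (vertical axes) in every embryo by stage (horizontal axes) and sire diet (blue control, orange low protein), with bars at group means and triangles for the 5 low protein blastocysts of plate 6. Eif4e1b and Eif4e3 are lower from the 4-cell stage on, Eif4e is lower from the morula stage on, and Eif4ebp1 is higher at each step up to the morula.

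The regulators of eIF4E moved in different directions. Eif4enif1 codes for 4E-T, which binds eIF4E and takes part in mRNA repression (chromosome 11, 3202392 to 3244588, overlapping Drg1). It fell from a median of 454 TPM (64 to 716) to 40.1 TPM (8.20 to 108) at the 4-cell step in control embryos, with -3.52 ± 0.166 (limma adjusted p = 1.28e-43), and to 5.67 TPM (0 to 32.2) in morulae, with -2.47 ± 0.176. The 2-cell and 4-cell ranges overlapped in their tails.

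Eif4ebp1 codes for 4E-BP1, the inhibitor released by mTOR signaling (chromosome 8, 27260329 to 27276674). Its median was 21.1 TPM (0 to 262) in control 2-cell, 189 TPM (37.4 to 375) in 4-cell, 806 TPM (256 to 1463) in morula and 722 TPM (491 to 1408) in blastocyst embryos. It rose at the 4-cell step (3.50 ± 0.267, limma adjusted p = 2.77e-25) and was the one gene of the 50 to rise at the morula step in control embryos (1.75 ± 0.283, limma adjusted p = 2.86e-08). In low protein embryos the morula step was 2.51 ± 0.278. The late blastocysts held 1310 and 876 TPM in the control group and 733, 204 and 678 TPM in the low protein group.

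Eif4ebp2, which codes for 4E-BP2, rose and fell between the same stages. Its median was 6.49 TPM (0 to 43.9) in control 2-cell, 32 TPM (0 to 134) in 4-cell and 4.15 TPM (0 to 17) in morula embryos, with steps of 1.93 ± 0.239 and -2.39 ± 0.253. It rose at the blastocyst step to 13.5 TPM (7.57 to 19.8) in control embryos (1.02 ± 0.396, limma adjusted p = 0.0353). That call was lost when plate 1, 2, 3 or 6 was left out and with a pseudocount of 0.1, and the step was 0.08 ± 0.369 in low protein embryos, or 0.54 ± 0.438 without the plate 6 blastocysts.

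Of 13 genes of mTOR signaling and eIF4E control, 5 rose (34.9% of all) at the 4-cell step in control embryos. A further 2 fell (36.9% of all), and the median log2 fold change of the 13 was 0.52. The risers were Mlst8, a core mTOR subunit (3.96 ± 0.206), Rps6, a ribosomal protein and target of the pathway (4.00 ± 0.152), Rps6kb2, an S6 kinase (2.78 ± 0.254), and Mknk1 and Mknk2, the kinases that phosphorylate eIF4E (1.26 ± 0.200 and 1.07 ± 0.223). Deptor, an mTOR inhibitor, and Tsc1, of the complex that restrains mTOR, fell. At the morula step 0 rose (10% of all) and 4 fell (26.8% of all). Among the 4 were Mknk1 (-2.26 ± 0.212), Mknk2 (-2.27 ± 0.236) and Mtor, the kinase itself (-1.06 ± 0.176).

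Among the other cap and unwinding factors, Eif4h, a cofactor of the helicase eIF4A, rose from a median of 26.9 TPM (0 to 125) to 445 TPM (149 to 741) at the 4-cell step. The groups did not overlap and the log2 fold change was 3.97 ± 0.157 (limma adjusted p = 9.32e-52). Eif4a1, the main helicase gene, rose from a median of 719 TPM (249 to 2121) to 1506 TPM (600 to 2199), with 1.11 ± 0.109. Eif4a2, its paralog, which overlaps Rfc4, rose from 112 TPM (14.8 to 279) to 228 TPM (56.2 to 518), with 1.08 ± 0.135. The share of Eif4a1 in the pair kept medians of 88%, 86.2%, 81.7% and 77.4% at the 2-cell, 4-cell, morula and blastocyst stages, the last being 77.7% without plate 6.

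The scaffold genes of eIF4G did not keep their proportions. Eif4g1 rose from a median of 29.6 TPM (5.14 to 169) to 176 TPM (48.1 to 248), with 1.95 ± 0.156 (limma adjusted p = 9.8e-24), and fell to 61.7 TPM (1.66 to 180) in morulae, with -1.37 ± 0.166. Eif4g2, coding for the cap-independent factor DAP5, was at 116 and 182 TPM (0.37 ± 0.162, under the minimum), and Eif4g3 at 8.07 and 8.89 TPM (0.10 ± 0.165). Eif4g1 thus made up a median of 19.9% of the eIF4G genes in 2-cell and 46.7% in 4-cell embryos. Eif4a3, a helicase of the exon junction complex rather than of initiation, rose by 1.77 ± 0.116, and Eif4b, another helicase cofactor, was at 0.24 ± 0.107.

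Of the 11 genes for start codon recognition and tRNA delivery, 6 rose and 1 fell at the 4-cell step in both diets. Among the 6 was Eif1ad (1.52 ± 0.112 in control embryos), which is in this group by its symbol alone. Over all genes 34.9% rose in each diet, and 36.9% fell in control and 37.6% in low protein embryos. Among the 11, pairs of paralogs went apart. Eif1a was at a median of 3.83 TPM (0 to 103) in control 2-cell embryos, 6 of 41 being at 0, and at 208 TPM (81.1 to 372) in control 4-cell embryos (5.06 ± 0.234, limma adjusted p = 1.72e-44). Eif1ax, its X-linked paralog, was at 230 TPM (77.6 to 949) and 198 TPM (70.03 to 449), with -0.08 ± 0.204. Eif1a hence made up a median of 1.74% of the pair in 2-cell and 49% in 4-cell embryos. How reads that match both genes of a pair were counted is not stated.

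Eif1, which monitors start codon choice, was at a median of 1106 TPM (393 to 2012) in control 2-cell and 1034 TPM (550 to 1978) in control 4-cell embryos. Its paralog Eif1b (chromosome 9, 120492232 to 120495330) fell from 612 TPM (139 to 996) to 55.6 TPM (16.5 to 153), with -3.04 ± 0.161 (limma adjusted p = 1.01e-38). The 2-cell and 4-cell ranges of Eif1b met at 139 to 153 TPM. The share of Eif1b in the pair went from a median of 36.2% at the 2-cell stage to 5.07% at the 4-cell stage, and was 24% in the 5 late blastocysts.

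**Figure D4:**
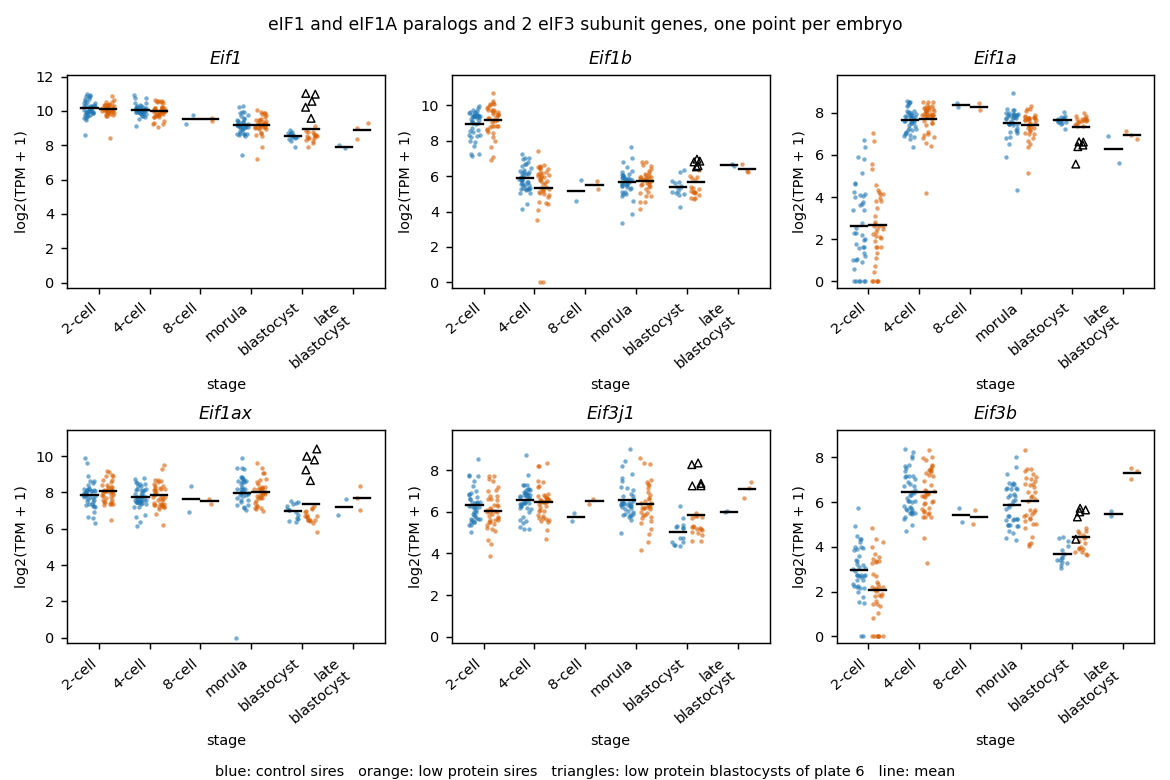
log2(TPM + 1) of 6 genes (vertical axes) in every embryo by stage (horizontal axes) and sire diet (blue control, orange low protein), with bars at group means and triangles for the 5 low protein blastocysts of plate 6. Eif1a rises and Eif1b falls at the 4-cell stage while Eif1 and Eif1ax stay near their level, and the triangles of Eif1ax lie at 400 TPM or more, above every other blastocyst.

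Both eIF2 subunit genes among the 50 rose, those of the alpha and beta subunits. Eif2s1, the subunit that the kinases phosphorylate, went from a median of 71.4 TPM (37.4 to 179) to 289 TPM (135 to 643), with 2.07 ± 0.113. Eif2s2, the beta subunit, went from 199 TPM (97.7 to 346) to 766 TPM (321 to 1507), with 1.98 ± 0.074. Eif5, which triggers GTP hydrolysis by eIF2, rose by 1.39 ± 0.099. Eif5b, the GTPase that joins the ribosomal subunits, rose by 1.08 ± 0.108 and then fell at both later steps, by 1.31 ± 0.114 and 1.14 ± 0.179 on the log2 scale. Eif2a and Eif2d, which act in noncanonical delivery of tRNA, were at 0.76 ± 0.154 and -0.05 ± 0.167 and did not pass the minimum at the 4-cell step.

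Eif5a, a hypusine-bearing factor that also acts in elongation, had the highest level of the 50 genes at each of the 4 large stages. Its median was 2195 TPM (734 to 3363) in control 2-cell, 2758 TPM (1781 to 4029) in 4-cell, 5668 TPM (325 to 8934) in morula and 4870 TPM (4114 to 5649) in blastocyst embryos. The morula step was 0.80 ± 0.128 in control embryos, under the minimum, and 1.15 ± 0.085 in low protein embryos, where it was called. Eif5a2 fell from a median of 8.49 TPM (0.59 to 31.2) to 2.41 TPM (0 to 9.09) at the 4-cell step, with -1.63 ± 0.197. Eif6, which keeps the large ribosomal subunit from joining too early, rose from 233 TPM (101 to 809) to 1382 TPM (725 to 2309), with 2.55 ± 0.109 (limma adjusted p = 3.1e-48). It fell at the blastocyst step from a median of 930 TPM (345 to 1462) to 385 TPM (309 to 507), with -1.44 ± 0.180 (limma adjusted p = 3.42e-11).

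Genes whose control embryos did not overlap between the 2-cell and 4-cell stages were Eif2b3, Eif3d, Eif3e, Eif3g, Eif3k, Eif3l, Eif3m and Eif4h among the higher and Eif4e1b and Eif4e3 among the lower. Over all 11076 genes 3.42% were apart upward and 5.63% downward. In low protein embryos Eif2b3, Eif3c, Eif3g and Eif3m were apart upward and Eif4e3 downward, where 2.58% of all genes were apart upward and 6.98% downward.

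The fitted blastocyst steps rest on few plates. Control blastocysts lie on plates 2 and 3, with 3 and 4 control morulae beside them, so a step can differ from the difference of group means. Eif1a had means of 199 TPM in control morulae and 203 TPM in control blastocysts, yet a fitted step of -0.88 ± 0.388 (adjusted p = 0.0691). All 9 genes that fell in control embryos were lower on both plates. The calls come from these same plates, so that count is no separate support. In the low protein blastocysts of plate 6, Eif1ax averaged 847 TPM (400 to 1339) against 103 ± 24.5 TPM (SD, n = 17) in the others. Eif1 was at 1512 against 372 ± 73.5 TPM, Eif3j1 at 218 against 39.2 ± 11.5 TPM, Eif3b at 41.3 against 18.1 ± 5.41 TPM and Eif3d at 61.3 against 376 ± 57.1 TPM. Eif2d was at 24.4 against 191 ± 55 TPM. The plate 6 range lay above that of the other 17 for 5 of the 50 genes, Eif1, Eif1ax, Eif1b, Eif3j1 and Eif5a2, and below it for 15, among them Eif2d, Eif3d, Eif3g, Eif4a1 and Eif4h. Over all genes 9.72% lay above and 12.1% below. What sets these 5 embryos apart was not tested.

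The comparison the study was built for is that of the sires' diets. Each stage was fitted on its own, low protein minus control, with plate as covariate. Across the 50 genes 0 passed an adjusted p of 0.05 in limma at the 2-cell (0% of 10314 genes), 4-cell (0% of 9820), morula (0% of 9552) or blastocyst stage (0% of 9378). The genes that passed the filter on low values numbered 50, 50, 49 and 48. Eif4e1b was too low in morulae, and Eif4e1b and Eif5a2 were too low in blastocysts. Members with an unadjusted p under 0.05 are given as a description. The sire received the diet, whereas these fits treat embryos of 1 sire as independent, with 8 sires per diet at the 2-cell and morula stages and 2 control and 3 low protein sires at the blastocyst stage.

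At the 2-cell stage 1 gene was higher and 10 were lower in low protein embryos at an unadjusted p under 0.05, where 2.77% of all genes were higher and 4.18% lower. The lower ones were Eif3h, Eif3b, Eif3a, Eif4g1, Eif4a3, Eif2b5, Eif2s1, Eif6, Eif5a and Eif5b, and the higher one was Eif1ax (0.24 ± 0.106). Eif3h was at 55.4 to 572 TPM with a median of 125 TPM in control and at 44.5 to 350 TPM with a median of 105 TPM in low protein embryos. The groups overlapped almost wholly, with a log2 difference of -0.38 ± 0.102 (limma p = 0.000376, adjusted p = 0.599), lower in 6 of 6 plates.

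Eif3b was at 0 to 52.7 TPM with a median of 5.77 TPM in control 2-cell and at 0 to 27.5 TPM with a median of 3.32 TPM in low protein 2-cell embryos, 2 of 41 and 7 of 39 being at 0. The log2 difference was -0.91 ± 0.276 (limma p = 0.00154, adjusted p = 0.599), lower in 4 of 6 plates. Eif2b5 had medians of 9.93 and 7.19 TPM (-0.63 ± 0.265), lower in 6 of 6 plates, whereas Eif5b was lower in 3 of 6. Genes were picked by p in these same embryos, so the plate counts are no separate support. With sire as a correlated block 4 of the 10 genes remained under an unadjusted 0.05, counted over the same direction, and without the plate covariate 1 did. Genes detected averaged 9134 ± 742 in control and 9254 ± 562 in low protein 2-cell embryos, and their part in these differences was not tested.

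In morulae the differences had the other sign. Unadjusted p was under 0.05 for 11 of 49 genes that were higher in low protein morulae, where 9.46% of all genes were, and for 0 that were lower, where 0.963% of all were. The median difference of the 49 genes was 0.13 and that of all genes 0.12. By role group it was 0.37 for eIF2B, 0.10 for eIF3 and 0.04 for the start codon and tRNA delivery genes. The eIF4E regulators had 0.335, the eIF2 kinases 0.306 and the cap and unwinding genes 0.127. The eIF5A genes had 0.066 and Eif6 0.215. Whether the 49 genes shifted beyond the whole table was not tested. The 11 were 4 of the 5 eIF2B genes (Eif2b1, Eif2b2, Eif2b3 and Eif2b4), Eif3g, Eif4ebp1, Eif4enif1, Eif4a1, Eif5a, Eif6 and Eif2ak4.

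Eif3g was at 214 to 789 TPM with a median of 519 TPM in control and at 357 to 1164 TPM with a median of 597 TPM in low protein morulae. The ranges overlapped, with 0.31 ± 0.088 (limma p = 0.00081, adjusted p = 0.246), higher in 6 of 6 plates. Eif2b3 had medians of 159 TPM (81.5 to 292) and 194 TPM (105 to 328), with 0.33 ± 0.099 (limma p = 0.00155, adjusted p = 0.25), also in 6 of 6 plates. Eif4ebp1 had medians of 806 and 963 TPM and 0.34 ± 0.103, again in 6 of 6. Eif2b2, Eif4a1 and Eif5a were higher in 5 of 6 plates, and Eif4enif1 and Eif2ak4 in 4 of 6. Here too genes were picked by p in these same embryos, so the plate counts are no separate support. With sire as a correlated block the limma adjusted p of Eif3g, Eif2b3 and Eif4ebp1 was 0.715 each. Morulae of the 2 diets had 8354 ± 1036 and 8598 ± 539 genes detected and summed trophectoderm marker levels of 783 ± 508 and 811 ± 411 TPM. The part of either in the shift was not tested.

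At the 4-cell stage 1 gene was higher (1.96% of all) and 1 lower (3.25% of all) at an unadjusted p under 0.05, Eif3a (0.21 ± 0.095) and Eif1b (-0.53 ± 0.235). At the blastocyst stage they were 1 higher (1.54% of all) and 1 lower (1.9% of all), Eif3b (0.52 ± 0.160) and Eif1ax (-0.30 ± 0.133). Without the plate covariate, where the plate 6 blastocysts with their 847 TPM of Eif1ax enter the contrast, Eif1ax was 0.35 ± 0.349. Eif3b was at 7.32 to 20.8 TPM with a median of 10.5 TPM in 14 control blastocysts. It was at 11.5 to 28 TPM with a median of 17.1 TPM in the 17 low protein blastocysts outside plate 6, which alone inform the contrast. The limma p was 0.00255 and the adjusted p 1, and with sire as a correlated block the adjusted p was 0.0337, with 31 of all genes called. The consensus correlation within sires was -0.0436 at that stage. With 2 control and 3 low protein sires, and plate in the fit, it cannot show how alike embryos of 1 sire are. In the fit with that negative value the SE of Eif3b was 0.117, against 0.160 without the block.

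**Figure D5:**
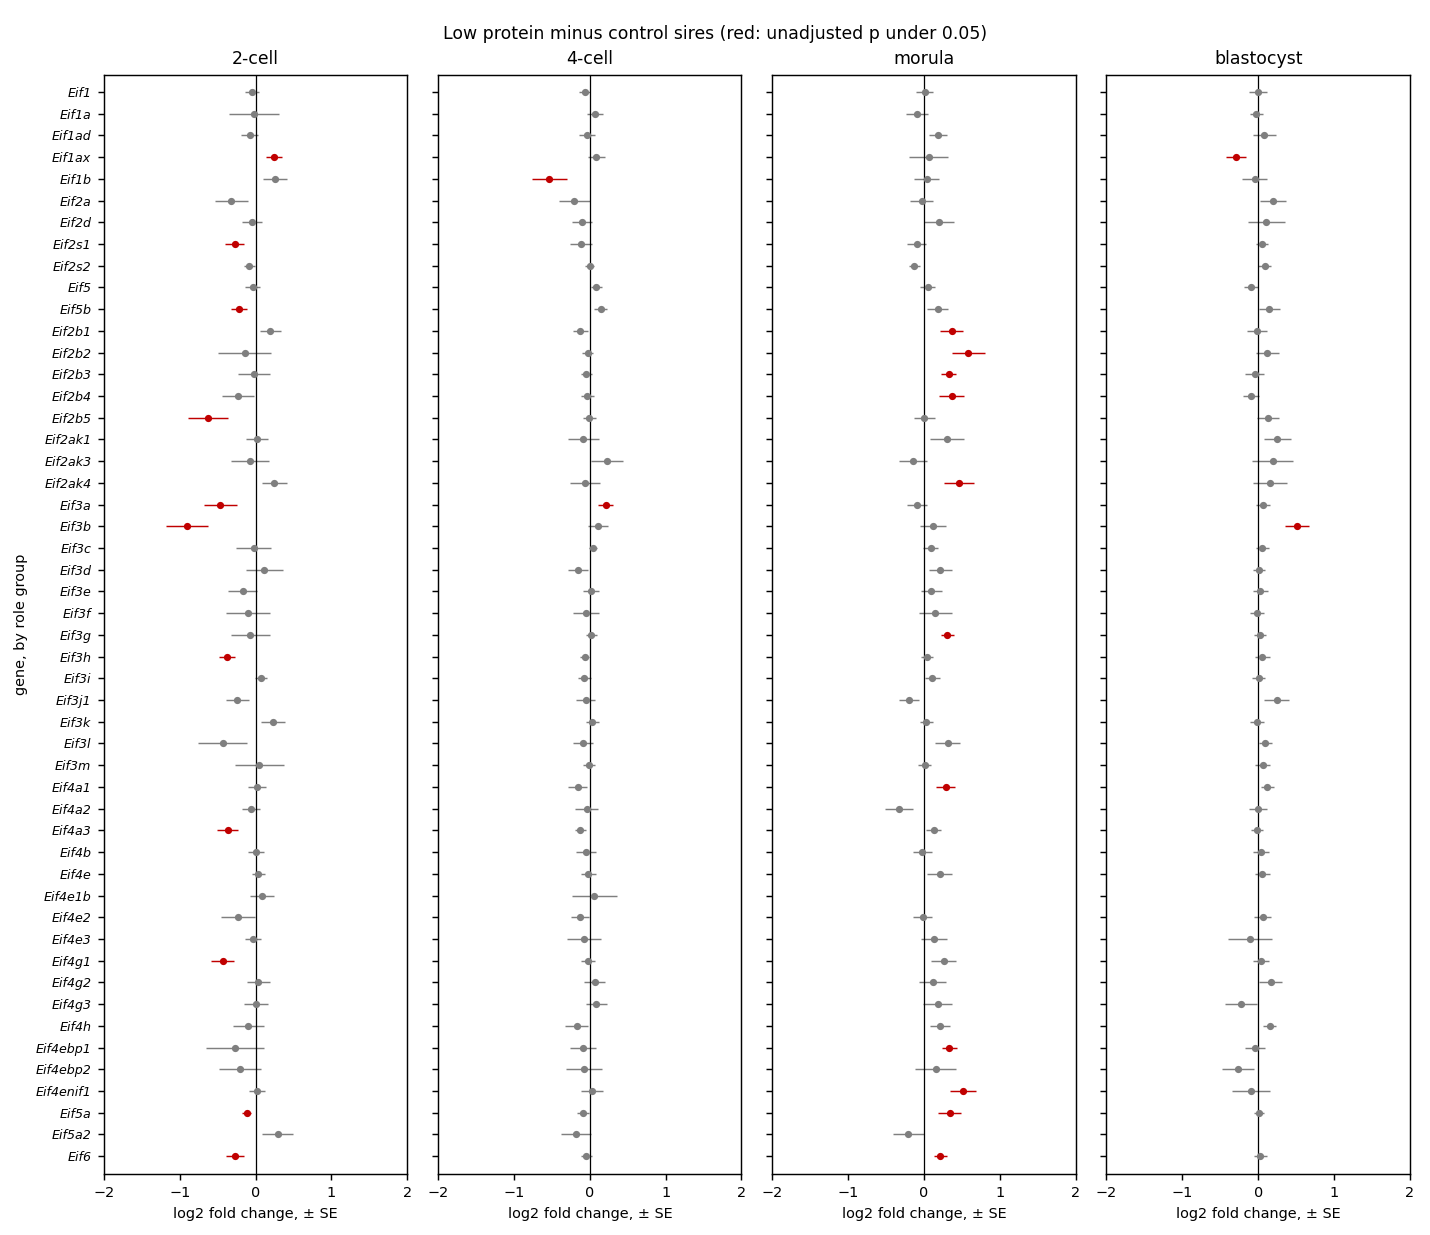
Log2 fold change with its SE (horizontal axes), low protein minus control, for the 50 genes (vertical axis, by role group) at 4 stages, where red marks an unadjusted p under 0.05. At the 2-cell stage 10 of the 11 red points lie left of 0, in morulae all 11 lie right of 0, and no point passed an adjusted p of 0.05.

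Whether the diet difference changed with stage was tested by the interaction over the 4 large stages. Among 10899 genes 6 passed (0.0551%), and 0 of the 50 did. At an unadjusted p under 0.05 there were 12 of the 50, against 9.22% of all genes. Eif3b came nearest (limma p = 4.94e-05, adjusted p = 0.0536), followed by Eif3h (p = 0.000585, adjusted p = 0.142), and both names come from values already seen above.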

How the data were processed

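The authors deposited 1 table of TPM values for 280 embryos and 11076 genes, used here as deposited. The submitters' processing notes name Bowtie and the genome mm10 (the version of Bowtie was not given there), and the library is a single-cell and Nextera kit, per the labels. No gene had a maximum under 5.87 TPM, TPM sums ran from 985115 to 998407, and reads and depth are unknown. No 2 embryos had identical values.

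Values were taken as log2(TPM + 1) and fitted with limma 3.58.1 in R 4.3.3 (trend and robust settings, plate as covariate). Kept were genes that reached a TPM of 1 in 25% of the embryos of a fit, and p-values were adjusted by Benjamini-Hochberg over all of them. Stage steps used 1 fit per diet over 4 stages, with calls at an adjusted p under 0.05 and a log2 fold of 1 or more. Diet was fitted per stage, and the interaction with plate within stage. Tables were made in Python 3.11.15 with pandas 2.3.3. The fits were tested on simulated data, made by shuffling embryos within plates and adding known changes. Shuffling breaks any likeness between embryos of the same sire or donor, so that test cannot show how such likeness affects the p-values.

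Values in full are given for the 2 called genes with the largest change per direction and step among those with a mean of 50 TPM or more in 1 stage, for a set of core genes, and for genes with an unadjusted p under 0.05 in a diet fit. Eif3l, Eif4h, Eif2b3, Eif2b1, Eif1b, Eif2s2, Eif3i, Eif3j1 and Eif4e2 are given besides, chosen after their values were seen. The genes, role groups and lists were chosen with earlier results of these data known. Nothing says that replicate embryos were collected separately beyond their sires and donors, so p-values measure the spread between embryos. Alternatives were quantile normalization, a pseudocount of 0.1, leaving out the plate covariate, no filter, embryos under 5000 genes left out and Rn45s left out. Others were no fold minimum, each plate left out and, in the diet fits alone, sire as a correlated block. The stage steps were not refitted with sire or donor as a block, so they treat embryos of 1 sire or donor as independent. Added after seeing the data were leaving out 16 embryos with suffixed sire identifiers, leaving out the plate 6 blastocysts, and the oocyte donor as a block in the diet fits. Per the file headers, donors with embryos in both diet groups numbered 16 of 17 for 2-cell and for 4-cell embryos, 15 of 15 for morulae and 4 of 6 for blastocysts. Positions are from GENCODE vM21 on GRCm38. Of the 50 genes, 12 overlap another coding gene and 10 pseudogenes of the family are annotated, so such values are uncertain. The shares of paralogs are uncertain too, since the handling of reads that match several genes is not stated.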

Additional observations from a re-analysis of the deposited data

How the results depend on the processing

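The 4-cell step kept its counts within 1.5 times under every alternative run, none of which took sire or donor into account. With plates left out it had 29 to 31 rises in control embryos, 30 to 32 in low protein embryos and 6 falls in each. At the morula step, quantile normalization gave 2 rises and 7 falls in control embryos, no plate covariate 2 rises, and no fold minimum 6 rises and 28 falls, with 8 and 25 in low protein embryos. At the blastocyst step, a pseudocount of 0.1 gave 0 rises in control embryos and no fold minimum 21 falls. In low protein embryos, no plate covariate gave 1 rise, quantile normalization 5 falls and no fold minimum 30 falls. With each plate left out, rises in control embryos at that step ran from 0 to 1, and falls from 6 to 9, with 10 to 18 falls in low protein embryos. No diet call appeared in the 50 genes except 1 at the blastocyst stage with sire as a correlated block, Eif3b. Unadjusted counts moved more: lower genes at the 2-cell stage numbered 5 to 10 with plates left out and 6 without suffixed sires, and higher genes in morulae 7 to 11. Gene by gene, with the fold minimum kept, 124 called steps kept their call in 1783 of 1862 refits, lost it in 79 and reversed in 0, and steps not called gained a call in 40 of 2638. Replicate numbers only name the embryos and pair none, but most donors of oocytes had embryos in both diet groups. With the donor as a replicate block beside plate, chosen after seeing the data, 0 of the 50 genes were called for diet at any stage (2 of all genes in morulae, 0 elsewhere). Unadjusted counts were then 1 higher and 9 lower at the 2-cell stage, 1 and 1 in 4-cell embryos, 11 and 0 in morulae and 2 and 1 in blastocysts. What sets the limits is unknown depth, the fixed total of TPM, and few sires and plates at the blastocyst stage.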

Other observations

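Genes outside the Eif symbols that act beside the initiation factors were described from lists of the same kind. Of 11 elongation and release genes, 7 rose (34.9% of all) and 2 fell (36.9% of all) at the 4-cell step in control embryos. The median log2 fold change of the 11 was 1.39. Eef1g, a subunit of the exchange factor of eEF1A, went from a median of 29.5 TPM (0 to 264) to 569 TPM (292 to 1090), with 4.69 ± 0.209 (SE, limma adjusted p = 3.61e-46). Eef2, the translocase, rose by 2.73 ± 0.124. Eef2k, the kinase that inhibits eEF2, fell from a median of 190 TPM (5.34 to 506) to 1.96 TPM (0 to 7.39), with -6.17 ± 0.184 (limma adjusted p = 2.01e-65).

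Of 14 partners of the initiation factors, 5 rose (34.9% of all) and 4 fell (36.9% of all) at that step. Mcts1, which with Denr acts in ribosome recycling and reinitiation, rose by 5.58 ± 0.217, with 19 of 41 control 2-cell embryos at 0 and all 42 control 4-cell embryos at 44.2 TPM or more. Among the poly(A)-binding proteins, Pabpc1 rose from a median of 20.3 to 126 TPM (2.49 ± 0.186), and its oocyte paralog Pabpc1l fell from 115.6 to 0 TPM (-6.10 ± 0.186). Paip1, which joins the poly(A)-binding protein to eIF4A, fell from 523 to 15 TPM (-5.24 ± 0.202). Cdc123, needed for the assembly of eIF2 in yeast, fell at the 4-cell step (-2.33 ± 0.215) and rose at the morula step (2.47 ± 0.228).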
